A study of Mus musculus with 10 samples.

Results

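The respiratory chain subunit genes described here are the mouse genes whose symbols begin with Nduf or Uqcr, together with the 4 succinate dehydrogenase genes Sdha, Sdhb, Sdhc and Sdhd, cytochrome c (Cycs) and the cytochrome c oxidase subunits Cox4i1, Cox5a, Cox5b, Cox6c and Cox7a2. They were chosen by symbol and not by their values. Each was read by the probe set annotated to 1 gene with the highest mean log2 level over all 10 arrays. The rule found 62 of the 18194 genes with such a probe set, 44 of them by the Nduf prefix, 8 by the Uqcr prefix and 10 named singly. Cox7b, also named by the rule, was not analysed here.

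The study hybridised RNA of sorted CD4 T cells to Affymetrix mouse 430 2.0 arrays, 1 for each of 10 groups, so that no group has a replicate. GFPfoxp3 cells were GFP+ CD4+ cells of homozygous Foxp3(gfp/gfp) females, whose knock-in allele makes Foxp3, the transcription factor of regulatory T cells, fused to green fluorescent protein (GFP). GFPko cells were GFP+ CD4+ cells of heterozygous Foxp3(gfpko/wt) females, in which GFP stands in place of Foxp3. The gene is X-linked, so these cells use the allele without Foxp3 in an animal that also holds normal regulatory T cells. CD25pos cells (GFP- CD25+ CD4+) and CD25neg cells (GFP- CD25- CD4+) came from Foxp3(gfp/gfp) females, and CD25 is a chain of the receptor for IL-2. A further array each of GFPfoxp3, GFPko and CD25pos cells came from IL-2-treated mice, which had 4 injections of 50 ng per g within 24 h and gave cells 30 min after the final dose. The labels do not say whether the untreated mice received the vehicle. The last 3 groups began as CD25+ CD4+ cells of C57BL/6 mice, which were stimulated in culture through CD3 and CD28 with IL-2 and transduced with the retroviral vector MigR1, which also carries GFP. The vector held the phosphodiesterase PDE3B (MigR1_PDE3B), PDE3B with the substitution H801A (MigR1_PDE3B_H801A) or no insert (MigR1_empty). Transduced cells were mixed with CD25- CD4+ cells of B6.SJL mice, transferred into hosts lacking T cell receptor alpha, and sorted 3 weeks later as GFP+ GITR+ CD4+ Ly5.1- cells. All donors were females of 6 to 8 weeks, and lymph nodes and spleen were pooled. The Foxp3(gfp/gfp) line had been backcrossed to C57BL/6 from 129/Sv for 8 to 10 generations and the Foxp3(gfpko/wt) line for 5, so genotype and backcross cannot be told apart in any comparison of GFPko cells with the others.

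The respiratory chain passes electrons from NADH and succinate to oxygen across the inner mitochondrial membrane and pumps protons as it does so, and ATP synthase uses that gradient. Complex I (NADH dehydrogenase) is built from core subunits that carry the electron path and accessory subunits around them, with the help of assembly factors that do not remain in the finished complex. Complex II oxidises succinate, complex III passes electrons from ubiquinol to cytochrome c, and complex IV reduces oxygen. Resting and regulatory T cells are known to rely on this pathway, while activated effector T cells add glycolysis. All the genes described are nuclear genes.

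By role the 62 genes were 6 core subunits, 28 accessory subunits and 8 assembly factors of complex I, 4 subunits of complex II, 8 of complex III, cytochrome c, 5 subunits of complex IV, and the pair Ndufa4 and Ndufa4l2. The assembly factors share the Nduf prefix but are not subunits, and Ndufa4 is now counted to complex IV. A gene was tested where its probe set reached, on at least 1 array, that array's own median over all probe sets, which was between 3.04 and 3.22 on the log2 scale. 60 of the 62 genes passed. Ndufa4l2 (1.61 to 1.65 on the 10 arrays) and Ndufb4 (2.12 to 2.50) did not, and other probe sets of Ndufb4 name several genes and were left out. Ndufb1 passed close to that limit, at 2.77 to 4.01.

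The 7 arrays of cells sorted without transduction stood apart from the 3 transduced arrays. The 3′ probe set of Actb exceeded its 5′ probe set by 5.87 to 6.38 on the transduced arrays, against 2.70 to 3.80 on the sorted ones, and this gap grows as amplified RNA gets shorter. Of the T cell markers 6 of 8 were measured and lay above the array median on every array, Cd4 at 8.05 to 9.29 in transduced cells and 10.30 to 10.78 in sorted cells. Summed over 7 of 8 listed B cell markers, levels were 42.6 to 44.3 on transduced arrays, 38.8 and 39.3 in GFPfoxp3 cells and 30.6 to 33.7 elsewhere, while the B cell genes Pax5 and Cd79a lay below the median of every array. Summed over 7 of 8 CD8 and NK markers, they were 34.2 to 39.1 in CD25pos and CD25neg cells and 22.4 to 25.6 elsewhere, carried by Klrd1 and Eomes, with the NK receptor gene Ncr1 below the median of every array. Myeloid markers (6 of 6 measured) summed to 15.3 to 18.7 and erythroid markers (3 of 6) to 7.49 to 8.29.

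Among the 7 sorted arrays the 60 genes varied about as much as other genes. The median range between the lowest and the highest of these arrays was 0.64 for the 60 genes (0.16 for Sdhc to 1.94 for Ndufaf4), against 0.69 for all 11939 genes tested. Their extremes were not spread evenly over the arrays. CD25pos was the highest of the 7 arrays for 23 of the 60 genes (14.5% of all genes). GFPko after IL-2 followed with 15 (13.7% of all genes). The lowest array was CD25neg for 20 genes (17.4% of all genes) and untreated GFPko for 18 (18.0% of all genes).

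**Figure D1:**
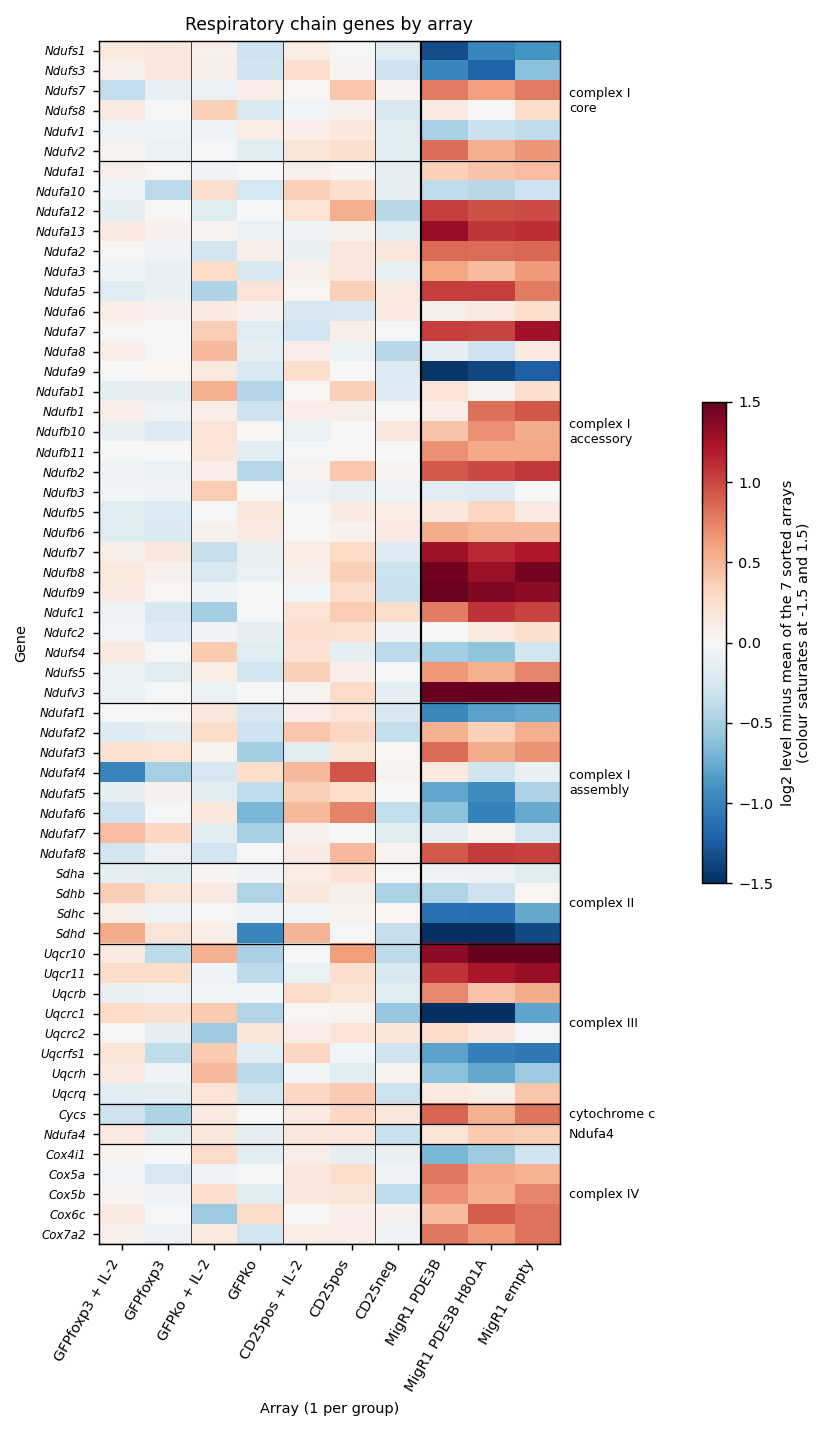
Log2 level of each of the 60 genes (rows, ordered by role) on each of the 10 arrays (columns), shown as the difference from that gene's mean over the 7 sorted arrays. Red is higher and blue lower, and the colour saturates at 1.5. The 3 transduced arrays right of the thick line depart in both directions, up for most accessory subunits of complex I and down for Uqcrc1, Sdhd, Ndufa9 and Ndufs1.

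Over all 10 arrays the widest ranges were those of Uqcrc1 (3.12), Sdhd (2.89) and Uqcr10 (2.35), all set by transduced arrays at 1 end. The narrowest were those of Sdha (0.40), the catalytic flavoprotein of complex II, Ndufc2 (0.44) and Ndufa6 (0.50). By their brightest probe sets the 4 subunits of complex II therefore differed. Sdha stayed between 10.92 and 11.32, Sdhb, the iron-sulfur subunit, between 10.86 and 11.70, and Sdhc, a membrane anchor, between 8.88 and 9.04 on sorted arrays and 7.82 to 8.19 on transduced ones. Sdhd, the other anchor, ranged from 6.45 to 9.35. The second probe set of Sdha was lower on transduced arrays, as given below, so its narrow range belongs to the brightest probe set.

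The first question was how GFP+ cells with Foxp3 differ from GFP+ cells without it and from CD25+ cells outside the Foxp3 population. The gene that moved in all 3 comparisons between these populations was Ndufaf4, a complex I assembly factor. Its log2 level was 7.65 after IL-2 and 8.14 without it in GFPfoxp3 cells, 8.39 and 8.90 in GFPko cells, and 9.12 and 9.59 in CD25pos cells. The 3 populations did not overlap, in an order that was the same with and without IL-2. The remaining arrays gave 8.79 for MigR1_PDE3B, 8.34 for MigR1_PDE3B_H801A, 8.53 for MigR1_empty and 8.69 for CD25neg.

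Differences were fitted with limma over the 6 arrays of these populations, as effects of population and of IL-2 that add up. The p-values measure how alike a difference was with and without IL-2, or from population to population, and not how animals differ. Ndufaf4 fell by 0.75 in GFPfoxp3 against GFPko cells (limma, SE 0.09, adjusted p = 0.0273), by 0.74 in the IL-2 pair and 0.76 in the untreated pair. Against CD25pos cells it was 2.75-fold lower in GFPfoxp3 cells (log2 difference -1.46, SE 0.09, limma adjusted p = 0.00731). In GFPko cells it was lower than in CD25pos cells, with a log2 difference of -0.71 (SE 0.09, limma adjusted p = 0.0436). The call between GFPfoxp3 and GFPko cells was lost without the CD25pos population (limma adjusted p = 0.0796), and that between GFPko and CD25pos cells under 5 alternatives, with an adjusted p between 0.0505 and 0.151. The second, dimmer probe set of Ndufaf4 read 6.19 and 6.79 in GFPfoxp3 cells with and without IL-2. In the same order it read 7.25 and 7.20 in GFPko cells and 7.28 and 7.63 in CD25pos cells. GFPfoxp3 was thus the lowest of the 3 populations by both probe sets. On the remaining arrays the second probe set read 5.62 for MigR1_PDE3B, 6.59 for MigR1_PDE3B_H801A, 5.66 for MigR1_empty and 7.83 for CD25neg.

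The bases upstream of Ndufaf4 are shown because it was the only member called in more than 1 comparison, and those of Cycs because its difference between GFPfoxp3 and CD25pos cells was the next largest among members with an unadjusted p under 0.05. Both are the 250 bases before the RefSeq start site in the build GRCm38.p6, for Ndufaf4 chr4:24897833-24898082 on the plus strand and for Cycs chr6:50566570-50566819 on the minus strand. Capitals mark matches to GCATGCG or its reverse complement, letters of the core bound by NRF1, a transcription factor known to act on nuclear genes of the respiratory chain.
Ndufaf4: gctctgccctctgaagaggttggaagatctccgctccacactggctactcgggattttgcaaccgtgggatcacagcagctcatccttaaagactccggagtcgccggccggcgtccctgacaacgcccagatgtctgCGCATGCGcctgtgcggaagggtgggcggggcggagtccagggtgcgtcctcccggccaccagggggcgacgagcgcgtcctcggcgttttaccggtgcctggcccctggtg
Cycs: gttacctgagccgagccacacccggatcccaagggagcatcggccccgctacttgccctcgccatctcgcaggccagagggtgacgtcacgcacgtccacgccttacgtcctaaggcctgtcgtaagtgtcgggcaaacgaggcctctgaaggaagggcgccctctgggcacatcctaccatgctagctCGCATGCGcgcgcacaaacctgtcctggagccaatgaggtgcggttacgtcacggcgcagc
The letters searched, on both strands of windows reaching from 250 bases before to 50 after the start, were GCATGCG (NRF1), CCGGAAG (GABPA, an ETS factor) and AAGATGG (YY1). The last pair can share the letters AAG where they follow each other. RefSeq windows were matched for 51 of the 62 genes, 53 windows in all. GCATGCG was found in 8 genes (Ndufaf4, Ndufaf5, Ndufa6, Ndufa8, Sdhb, Uqcrc1, Uqcr11 and Cycs), which is 15.1% of member windows, against 3.58% of all 32851 windows. CCGGAAG was in 18.9% of member windows and 8.86% of all, and AAGATGG in 13.2% and 6.34%. A match describes letters only and is no measurement of binding.

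GFPfoxp3 and GFPko cells differed in few other members. Of the 60 genes 1 was higher (5.44% of all genes) and 1, Ndufaf4, lower (2.03% of all genes), neither share being above that of all genes. The gene that rose was Ndufaf7, a methyltransferase that modifies a complex I core subunit during assembly. It read 6.47 after IL-2 and 6.31 without it in GFPfoxp3 cells, against 5.85 and 5.50 in GFPko cells, a log2 difference of 0.72 (SE 0.12, limma adjusted p = 0.0444). The pairs gave 0.63 after IL-2 and 0.81 untreated, and CD25pos cells lay between, at 6.07 and 6.01. Ndufaf7 was read by 1 probe set, and its adjusted p was 0.0622 to 0.0948 under 4 alternatives. Cycs, which carries electrons from complex III to complex IV and also triggers caspase activation in apoptosis, read 11.27 and 11.12 in GFPfoxp3 cells with and without IL-2, against 11.72 and 11.59 in GFPko cells. Its difference of -0.46 did not pass (limma adjusted p = 0.123), nor did that of Sdhd at 0.81 (adjusted p = 0.0999), which was 0.45 after IL-2 and 1.16 without it. The median over the 60 genes was -0.02, against 0.01 for all genes, with 27 above 0. Centring each array on its median over the genes tested, which takes 0.15 off each difference, moved the median of the members to -0.17 and that of all genes to -0.14, and left 12 members above 0. Of 5 B cell markers 3 were called higher in the same contrast, Cd74 by 3.11, Ighm by 2.03 and Cd79b by 1.65. Of the 5 markers 0 were called lower and 4 lay above 0, and their part in the result was not tested.

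**Figure D2:**
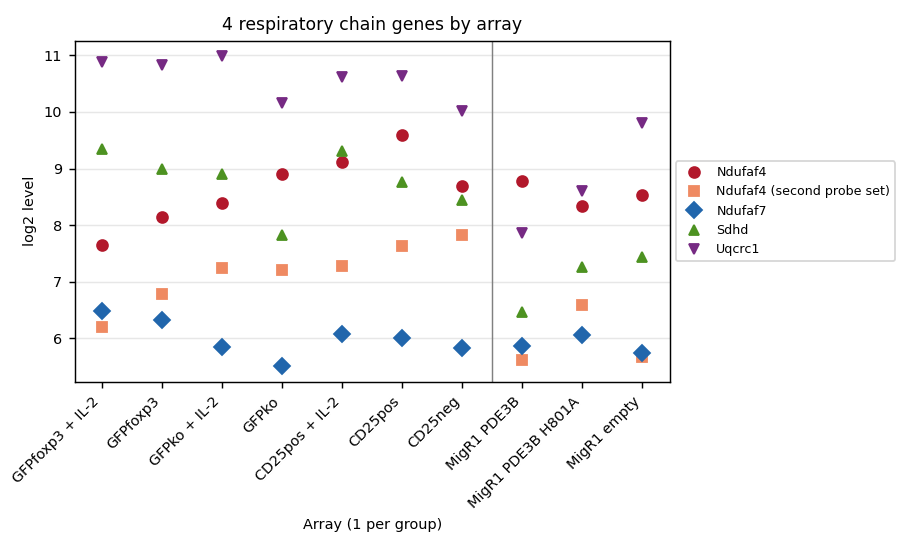
Log2 level of Ndufaf4 (both probe sets), Ndufaf7, Sdhd and Uqcrc1 on each of the 10 arrays, 1 point per array. Among GFPfoxp3, GFPko and CD25pos cells, both probe sets of Ndufaf4 are lowest in GFPfoxp3 and highest in CD25pos cells. Over all 10 arrays the second probe set is lowest with PDE3B (5.62) and highest in CD25neg cells (7.83). Uqcrc1 and Sdhd drop on the 3 transduced arrays right of the line.

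Set against CD25pos cells, most members were somewhat lower in both GFP+ populations. In GFPfoxp3 cells 0 of the 60 genes were called higher (5.28% of all genes) and 1, Ndufaf4, lower (3.45% of all genes), and 43 lay below 0, with a median of -0.16 against -0.03 for all genes. At an unadjusted p under 0.05 there were 15 members, 2 higher and 13 lower, which is 25.0% of the 60 genes, against 25.6% of all genes. The 13 included Cycs at -0.61 (limma adjusted p = 0.0709), the assembly factors Ndufaf2 at -0.54 and Ndufaf8 at -0.48, the accessory subunits Ndufa10 at -0.53 and Ndufa12 at -0.44, the core subunit Ndufs7 at -0.47 and Uqcrq of complex III at -0.50. The 8 assembly factors had the lowest median of the groups with several members, at -0.42. In GFPko cells 0 were called higher (1.25% of all genes) and 1, Ndufaf4, lower (2.24% of all genes), 48 lay below 0, and the median was -0.18 against -0.01 for all genes. All 8 assembly factors, all 4 complex II subunits and 7 of 8 complex III subunits lay below 0 there, without passing the test except for Ndufaf4. That lower level came mostly from untreated cells, since the median was -0.04 in the IL-2 pair and -0.32 in the untreated pair. With arrays centred, which adds 0.14, the median of the members was -0.04 and that of all genes 0.13, and 37 members lay below 0. The 2 comparisons share the CD25pos arrays. Of 6 CD8 and NK markers 4 were called lower in GFPfoxp3 cells, with Klrd1 at -6.05 and Eomes at -4.70, and 0 lay above 0. In GFPko cells 4 were called lower, with Klrd1 at -5.38 and Eomes at -5.17, and 2 lay above 0. Cd8b1 was 1 of these, at 5.53 with IL-2 and 4.86 without in GFPko cells, against 4.48 and 4.47 in CD25pos cells. Against CD25pos cells, 3 of 5 B cell markers were called higher in GFPfoxp3 cells, Cd79b at 3.27, Cd74 at 2.88 and Ighm at 0.98. Of 6 T cell markers 2 were called higher there, Cd2 at 1.41 and Cd5 at 0.72, and 0 of either list lower. In GFPko cells 1 of 5 B cell markers was called higher, Cd79b at 1.62, and 0 lower, with 0 of 6 T cell markers called. The part of these markers in the result was not tested.

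Other mitochondrial genes moved in few cases in these comparisons. Cox10, which makes the heme A precursor of complex IV, fell with Ndufaf4, by 0.63 in GFPfoxp3 against GFPko cells, by 1.89 in GFPfoxp3 against CD25pos cells and by 1.26 in GFPko against CD25pos cells. It was the only one of 26 measured assembly factors of other kinds to be called there. None of 18 ATP synthase genes and none of 6 further cytochrome c oxidase subunits was called by limma in either direction. Of 76 mitochondrial ribosome genes Mrps28 fell by 1.09 and Mrps5 by 0.87 in GFPfoxp3 against CD25pos cells, Mrps28 by 0.90 and Mrpl3 by 0.85 in GFPko against CD25pos cells, and Mrpl3 rose by 0.62 in GFPfoxp3 against GFPko cells. Among 13 regulators of mitochondrial gene expression Gabpb1, a subunit of the ETS factor GABP, rose by 0.70 in GFPfoxp3 against GFPko cells, and Tfb1m, which modifies mitochondrial ribosomal RNA, fell by 0.54 in GFPfoxp3 against CD25pos cells. Of 16 citric acid cycle genes Idh2 fell by 0.68 in the last comparison.

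The second question was what IL-2 treatment did. Over the 3 populations together no member was called higher (0.235% of all genes, 28 genes) or lower (0% of all genes) by limma. At an unadjusted p under 0.05 there were 7 members, 4 higher and 3 lower, or 11.7% of the 60 genes against 10.6% of all genes. Ndufaf4 had the smallest p, and its differences were -0.50 in GFPfoxp3, -0.51 in GFPko and -0.47 in CD25pos cells, with a mean of -0.49 (SE 0.08, limma adjusted p = 0.198). Its second probe set differed by -0.59, 0.05 and -0.36 in the same order, and so was not lower in GFPko cells. Uqcrfs1, the Rieske iron-sulfur protein of complex III, differed by 0.57, 0.55 and 0.35 in the same order (mean 0.49, limma adjusted p = 0.257). Sdhd differed by 0.36, 1.08 and 0.55 (mean 0.66, limma adjusted p = 0.364). Over the 60 genes the median was 0.07 and 43 lay above 0, against 49.7% above 0 for all genes. Among genes with a mean log2 level of at least 9, 55.3% lay above 0. Centring takes 0.04 off and left 35 members above 0, with a median of 0.03 against -0.04 for all genes. None of the genes of the 6 other mitochondrial lists was called.

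The populations differed when taken one at a time, which compares 1 array with 1 array and allows no test. A member counts here where it differs at least 1.5-fold. In GFPfoxp3 cells none was higher (4.31% of all genes) and none lower (1.56% of all genes) after IL-2, with a median of 0.06. In CD25pos cells none was higher (2.55% of all genes) and 1, Uqcr10, lower (2.75% of all genes), with a median of -0.08.

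In GFPko cells 10 of the 60 genes were higher after IL-2 (10.7% of all genes) and 3 lower (6.78% of all genes). The median was 0.33, against -0.01 for all genes and 0.06 for the 2589 genes with a mean log2 level of at least 9, which include 48 of the members. By role, 3 complex III subunits, 2 complex II subunits, 2 accessory subunits, 2 assembly factors and 1 core subunit were higher. Sdhd read 8.90 after IL-2 against 7.82 without, Uqcr10, a small subunit of complex III, 7.02 against 6.00, and Ndufab1, the mitochondrial acyl carrier protein, 9.81 against 8.84. The next were Uqcrh, the hinge protein that helps cytochrome c bind (12.27 against 11.39), the assembly factor Ndufaf6 (6.08 against 5.23) and Uqcrc1, a core protein of complex III (10.99 against 10.15). For these 6 genes the differences were 1.08, 1.02, 0.97, 0.88, 0.85 and 0.83. Sdhb, the iron-sulfur subunit of complex II, read 11.47 against 10.87. Lower after IL-2 were Cox6c of complex IV (11.95 against 12.78), Uqcrc2, the other core protein of complex III (11.81 against 12.53), and Ndufa5 (9.55 against 10.21). Sdha differed by 0.10, Sdhc by 0.08 and Cycs by 0.13.

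Probe sets of 1 gene did not always go the same way. The second probe sets of Cox6c, Uqcrc2 and Ndufa5 were higher after IL-2 in GFPko cells, by 0.73, 0.54 and 0.29, where the brightest were lower. That of Sdhd differed by -0.63 where the brightest differed by 1.08. Of 35 members with a second usable probe set, 20 had both on the same side of 0. Of the 8 of these past 1.5-fold, 4 had a second probe set on the same side, and 3 of those (Uqcr10, Ndufab1 and Ndufs8) were past 1.5-fold by both. Where probe sets whose identifiers end in _s_at, _x_at or _a_at were left out, which mark probes shared between transcripts or related sequences, 47 genes remained, and 15 were higher and none lower, with a median of 0.50. When each gene's probe sets were averaged, 8 were higher and none lower. The shares of all genes under these settings were not computed.

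**Figure D3:**
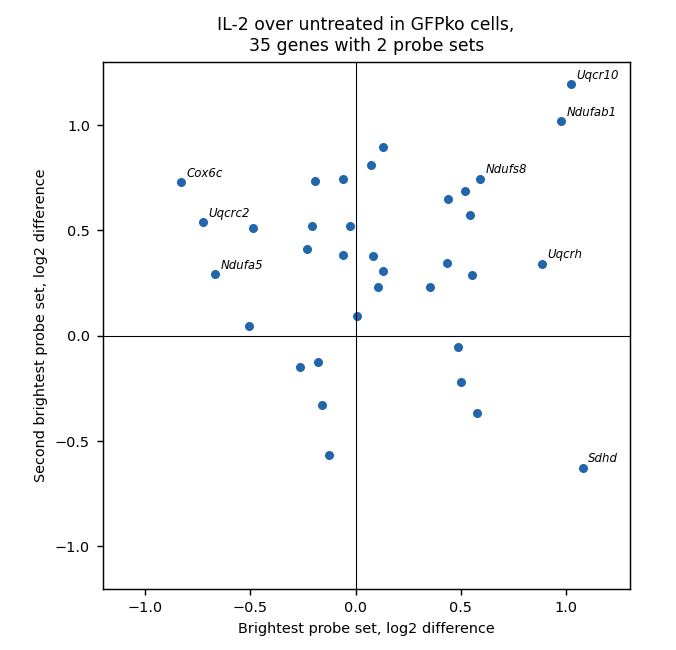
Log2 difference of IL-2 over untreated GFPko cells for the brightest probe set (horizontal) and the second brightest (vertical) of the 35 genes with both, 1 point per gene. Genes past 1.5-fold by the brightest probe set are named. Uqcr10, Ndufab1 and Ndufs8 are high on both axes, while Cox6c, Uqcrc2, Ndufa5 and Sdhd lie in quadrants where the probe sets disagree.

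The other mitochondrial lists were unevenly placed in the same pair. Of 76 mitochondrial ribosome genes 23 were higher and 1 lower, with a median of 0.40 and Mrps11 at 1.12, and of 18 ATP synthase genes 5 were higher and 1 lower, with a median of 0.29. Of 26 other assembly factors 5 were higher and 0 lower, with a median of 0.23. The citric acid cycle genes had a median of 0.08, with 2 of 16 higher and 0 lower, and the further cytochrome c oxidase subunits one of 0.02, with 1 of 6 higher and 0 lower. Of 13 regulators 1 was higher and 4 lower, with a median of -0.17, the growth regulator Myc at 2.10 and the coactivator Ppargc1b at -1.67. Untreated GFPko cells had the lowest level of Sdhd (7.82) and of Sdhb (10.87) in the model, against 8.76 to 9.35 and 11.41 to 11.70 on the other 5 arrays of GFPfoxp3, GFPko after IL-2 and CD25pos cells. The 3′ over 5′ gap of Actb was 2.76 after IL-2 and 3.69 without it in GFPko cells. It was 2.86 and 3.80 in CD25pos cells, where the median of the members was -0.08. Of 3 myeloid markers 1 was at least 1.5-fold higher in GFPko cells after IL-2, Lyz2 (5.70 after IL-2 against 3.36 without). Of 6 CD8 and NK markers 2 were higher, Klrd1 (4.57 against 3.04) and Cd8b1 (5.53 against 4.86). Of 5 B cell markers 1 was higher, Cd22 (4.40 against 2.82). In these lists 0 markers were lower by as much. The part of RNA length and of other cells in the result was not tested. Centring takes 0.10 off and left the median of the members at 0.23 and that of all genes at -0.11.

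CD25pos cells showed higher levels of most members than CD25neg cells, the GFP- CD4+ cells without the receptor chain. Of the 60 genes 9 were at least 1.5-fold higher (12.4% of all genes) and none lower (7.32% of all genes). The shift was broad and small rather than large in a few genes, since 54 of 60 lay above 0 (52.2% of all genes), with a median of 0.28. The median was 0.01 over all genes and close to 0 over the genes with a mean level of at least 9, of which 49.9% lay above 0. All 6 core subunits, all 8 assembly factors and all 4 subunits of complex II were above 0, as were 7 of 8 complex III subunits, 23 of 27 accessory subunits and 4 of 5 complex IV subunits. Centring takes off 0.12 and left 46 of 60 above 0, with a median of 0.16 against -0.11 for all genes.

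The assembly factors Ndufaf6 (6.66 in CD25pos against 5.55 in CD25neg cells, difference 1.11) and Ndufaf4 (9.59 against 8.69, difference 0.90) were among the largest differences. Uqcr10 read 7.11 against 6.09 (1.02), and Uqcrq, another small subunit of complex III, 10.55 against 9.83 (0.71). Of the accessory subunits Ndufa12 read 11.49 against 10.53 (0.96) and Ndufb8 10.22 against 9.55 (0.67). Uqcrc1, Ndufaf2 and Ndufb9 completed the 9 genes, at 0.62, 0.67 and 0.60. Sdha, Sdhb and Sdhd differed by 0.20, 0.56 and 0.31, Sdhc by 0.02 and Cycs by 0.15. The second probe set of Ndufaf4 read 7.63 in CD25pos against 7.83 in CD25neg cells, so the higher level was seen by 1 of its 2 probe sets. Of the 35 members with 2 probe sets, 26 had both on the same side of 0 (74.3%, against 64.8% of all such genes). Of the 6 of these past 1.5-fold by the brightest, 4 had a second on the same side, and 1 was past 1.5-fold by both. Among all such genes 1191 were past 1.5-fold by the brightest, 980 had a second on the same side, and 453 were past by both.

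In the same pair of arrays 14 of 76 mitochondrial ribosome genes were at least 1.5-fold higher and none lower, with a median of 0.36 and Mrps6 at 1.21. Of 18 ATP synthase genes 2 were higher (Atp5g1 at 0.99 and Atp5d at 0.77) and none lower, with a median of 0.30. Of 6 CD8 and NK markers 2 were at least 1.5-fold higher in CD25pos cells, Eomes (9.41 in CD25pos against 6.13 in CD25neg cells) and Klrk1 (4.65 against 2.47). Klrd1 was high in both (8.91 against 8.88), and Cd8b1 (4.47 against 5.05) and Prf1 (5.95 against 6.16) were lower. The 6 markers had a median difference of 0.01, with 3 above 0. The part of such cells in the result was not tested. The 3′ over 5′ gap of Actb was 3.80 in CD25pos and 3.29 in CD25neg cells.

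The GFP+ populations did not show this shift against the same CD25neg array. In GFPfoxp3 cells 2 members were higher (14.1% of all genes), Uqcrc1 (10.83 against 10.02 in CD25neg cells) and Sdhb (11.51 against 10.86), and 1 was lower (10% of all genes), Cycs (11.12 against 11.75), with a median of 0.05. The other usable probe sets of Cycs differed by -0.06 and -0.38, the same direction but short of 1.5-fold. In GFPko cells none was higher (7.45% of all genes) and 1, Sdhd, lower (8.9% of all genes), at 7.82 against 8.45 in CD25neg cells, with 30 of 60 members above 0. These 3 comparisons share the CD25neg array, and their differences from each other were not tested. Centring moves all genes alike, and the medians were then -0.05 for members and -0.11 for all genes in GFPfoxp3 cells, and 0.08 and 0.09 in GFPko cells.

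**Figure D4:**
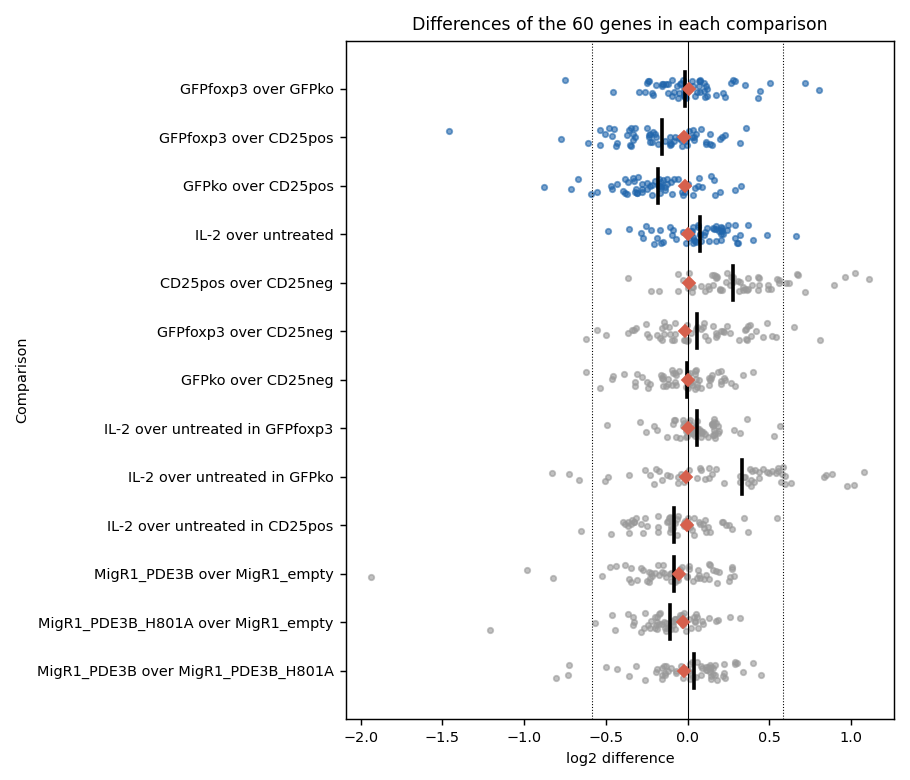
Log2 difference of each of the 60 genes (1 point per gene) in 13 comparisons, each named as the first group over the second. Blue points are limma estimates over 6 arrays, grey points are differences between 2 single arrays, the black bar is the median of the 60 genes, the red diamond the median of all genes tested, and dotted lines mark 1.5-fold. The medians of the members are farthest above those of all genes for CD25pos over CD25neg and for IL-2 in GFPko cells.

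Among the transduced cells the comparisons ask what PDE3B, which breaks down cyclic AMP, did. Most members differed little between the 3 vectors. With PDE3B 0 of the 60 genes were at least 1.5-fold higher than with the empty vector (4.92% of all genes) and 3 were lower (13.6% of all genes). Uqcrc1 read 7.87 with PDE3B, 8.60 with H801A and 9.80 with the empty vector, a difference of -1.94 for PDE3B and -1.21 for H801A against empty. Sdhd read 6.45, 7.26 and 7.44 in the same order, a difference of -0.98 for PDE3B against empty. Ndufb1 was below the array median with PDE3B (3.19) and read 3.91 with H801A and 4.01 with the empty vector, and was at least 1.73-fold lower with PDE3B than with the empty vector. With H801A 0 members were higher (4.06% of all genes) and 1, Uqcrc1, was lower (6.32% of all genes) than with the empty vector.

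Set directly against H801A, PDE3B gave 0 higher (3.74% of all genes) and 3 lower members (8.96% of all genes), which were Sdhd (-0.81), Uqcrc1 (-0.73) and Ndufb1 (at least 1.62-fold lower). The medians over the 60 genes were -0.08 for PDE3B over empty, -0.11 for H801A over empty and 0.04 for PDE3B over H801A. For PDE3B over empty the median of all genes was -0.05, and centring, which adds 0.22 to every gene, gave 0.13 for members and 0.16 for all genes. The comparisons share arrays. At its 5′ probe set Actb read 7.62 with PDE3B, 8.16 with H801A and 8.21 with the empty vector. Cd4 read 8.05, 8.65 and 9.29 in the same order. The part of RNA length and of Cd4 signal in the result was not tested. Cycs differed by 0.08 for PDE3B and -0.26 for H801A against empty, Sdha by 0.11 and 0.09, and Sdhb by -0.48 and -0.34. Of 76 mitochondrial ribosome genes 0 were higher and 9 lower for PDE3B against empty, with Mrpl50 at -1.35, and of 16 citric acid cycle genes 0 were higher and 3 lower, with Ogdh at -1.18.

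Transduced cells as a whole differed from sorted cells in most members, in both directions. In 31 of the 60 genes all 3 transduced arrays lay above all 7 sorted arrays (17.5% of all genes), and in 12 all 3 lay below (25.2% of all genes). The median difference between the means was 0.44, against -0.08 for all genes and -0.22 for genes with a mean level of at least 9. This description was added after the data were seen. The groups differ in culture, transduction, transfer, host and strain as well as in RNA length, which cannot be told apart.

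By role the directions were unevenly divided, but role and kind of probe set, described below, were not separated. Of 27 accessory subunits of complex I, 18 lay above and 1, Ndufa9, below. The largest were Ndufv3 at 1.51, Ndufb9 at 1.40 and Ndufb8 at 1.39. Ndufb9 read 12.35 with PDE3B, 12.27 with H801A and 12.22 with the empty vector, against 10.56 to 11.16 on the sorted arrays. Ndufa9 read 9.03, 9.13 and 9.27, against 10.27 to 10.76. Core subunits were divided, with Ndufs7 and Ndufv2 above and Ndufs1 (-1.07), Ndufs3 and Ndufv1 below. Assembly factors were divided as well, with Ndufaf3 and Ndufaf8 above and Ndufaf1 and Ndufaf5 below.

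No complex II subunit lay above, and Sdhd (-1.74) and Sdhc (-1.01) lay below. In complex III Uqcr10, Uqcr11 and Uqcrb lay above and Uqcrc1, Uqcrfs1 and Uqcrh below. Uqcr10 differed most, at 7.83, 8.32 and 8.35 with PDE3B, H801A and the empty vector against 6.00 to 7.11 on the sorted arrays, a difference of 1.68. Uqcrc1 read 7.87, 8.60 and 9.80 against 10.02 to 10.99, a difference of -1.83. Of the complex IV subunits Cox5a, Cox5b, Cox6c and Cox7a2 lay above and Cox4i1 below. Cycs read 12.46, 12.11 and 12.38, against 11.12 to 11.90 on the sorted arrays. Sdha and Sdhb overlapped between the groups.

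**Figure D5:**
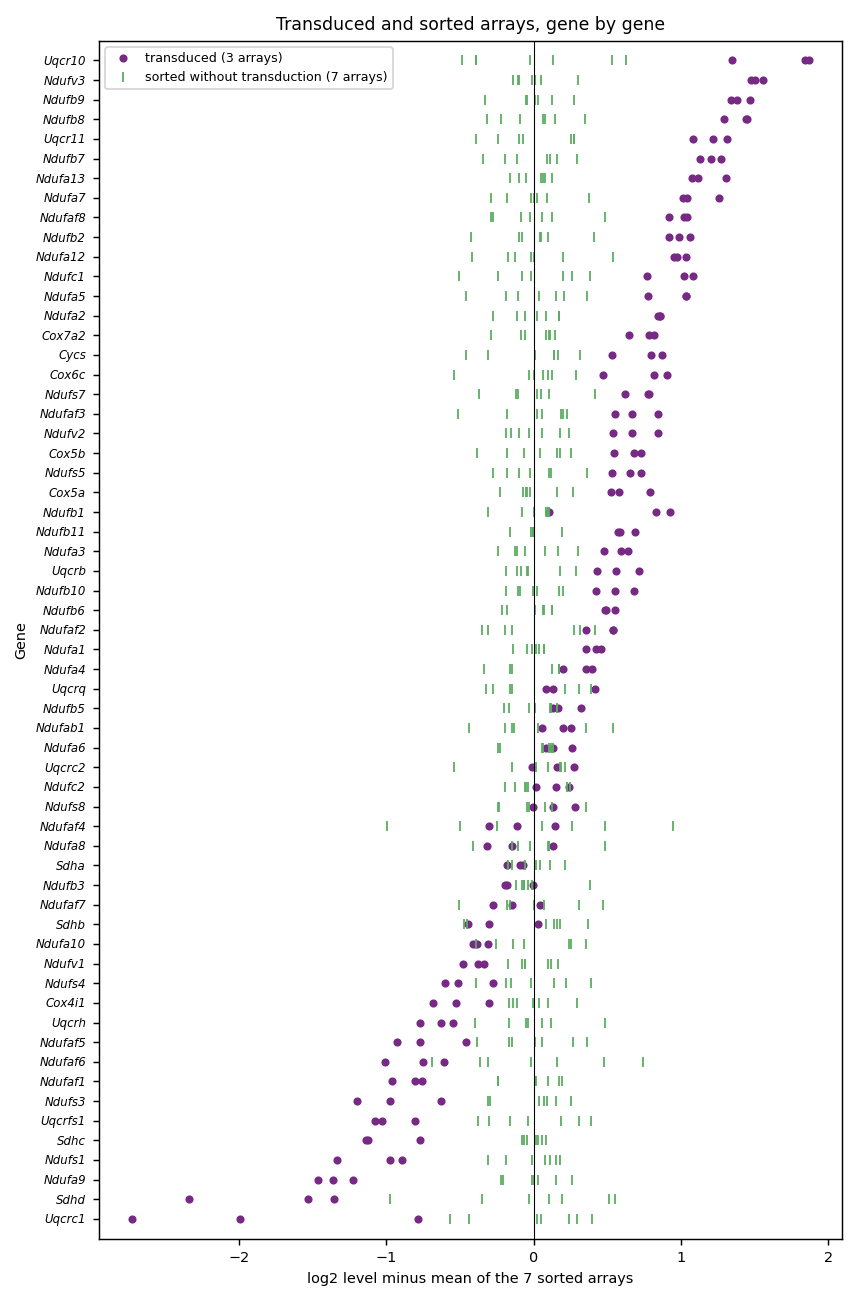
Log2 level of each of the 60 genes minus its mean over the 7 sorted arrays, with the 3 transduced arrays as purple points and the 7 sorted arrays as green ticks, ordered by the mean of the transduced arrays. Genes at the top, such as Uqcr10 and Ndufv3, lie wholly above the sorted arrays and those at the bottom, such as Uqcrc1 and Sdhd, wholly below.

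The kind of probe set moved with this result. Over all usable probe sets of the members, the 65 whose identifiers end in _s_at, _x_at or _a_at had a median difference of 0.63, with 53 above 0, and the 57 plain ones had a median of 0.05, with 29 above 0. Of the 60 genes 41 were read by a probe set of the first kind and 19 by a plain probe set. Among accessory subunits of complex I read by plain probe sets, Ndufb1 and Ndufs5 lay above the sorted arrays and Ndufa9 below. The others, Ndufa6, Ndufa8, Ndufa10, Ndufb3 and Ndufs4, overlapped with them. With plain probe sets only, 9 of 47 genes lay above and 8 below. The share of all genes was not computed for plain probe sets. It was 17.5% above and 25.2% below with every gene read by its brightest probe set. Second probe sets went lower in some genes, as for Sdha (-1.11 against -0.12 for the brightest) and Uqcrc2 (-1.15 against 0.14). Of 16 citric acid cycle genes 0 lay above and 10 below, with a median of -0.74 and Idh2 at -2.38, and of 18 ATP synthase genes 9 lay above and 4 below, with Atp5b at -2.44 and Atpif1 at 1.76. Members that were higher after IL-2 in GFPko cells tended to be lower in transduced cells relative to the other 5 sorted arrays (Pearson's r across the 60 genes -0.39, against -0.18 across all 11939 genes). These are correlations across genes, which are not independent replicates and share probe sets and RNA length, and no array entered both differences.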

How the data were processed

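Per the series' design text, the authors normalized all 10 arrays jointly, although they came from separate experiments, and the deposited values of 45101 probe sets are on a log2 scale as judged by their range. The software, background correction and probe summary they used were not given in the sources used here. Per the labels' protocols, cells were isolated by magnetic beads and flow sorting, Stat-60 was used to extract RNA, and cRNA was amplified in 2 rounds, which shortens the product from the 5′ end.

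Gene names came from the platform annotation of the probe sets (34958 with 1 gene, 932 with several, 9211 with none listed), with symbols updated by Entrez ID for 34754 to the RefSeq table of GRCm38.p6. Of 18194 genes 11939 passed the filter on dim probe sets (at least 1 array at or above its own median), and each was read by its brightest probe set. An additive limma model (version 3.58.1, R 4.3.3, lmFit with eBayes) was fitted to all these genes over 6 arrays with population and IL-2 as terms, leaving 2 residual degrees of freedom (prior degrees of freedom 2.23, prior SD 0.129). Benjamini-Hochberg adjustment of the p-values ran over all genes, and a gene was called under 0.05. The other comparisons hold 1 array a side and were described at 1.5-fold, with no test. Where the lower array lay below its median, a fold is given as at least the higher value over that median. The number of arrays limits the precision. The code was tested on simulated data.

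Members, lists and tests were chosen with earlier results of these data known. All members called or past 1.5-fold were named (at most the 6 largest in each direction for pairs), with Sdha, Sdhb, Sdhc, Sdhd and Cycs, the 3 widest and 3 narrowest ranges, and up to 4 genes of each other list. Alternatives were the filter, the choice of probe set, quantile normalization, centring on the median of the genes tested, an intensity trend with robust variance, omission of a population or of an IL-2 state, and a 2-fold threshold.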

Additional observations from a re-analysis of the deposited data

Results flagged for a closer look

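Uqcr10, a small subunit of complex III, differed in opposite directions after IL-2 in GFPko and in CD25pos cells. The log2 difference was 1.02 in GFPko cells (7.02 after IL-2 against 6.00 without) and -0.65 in CD25pos cells (6.46 against 7.11). It was singled out because both differences are past 1.5-fold with opposite signs. Each rests on 1 array a side, so the difference was not tested. The other probe sets of Uqcr10 differed by 1.19 and 1.00 in GFPko cells and by -0.23 and -0.80 in CD25pos cells, the same directions as the brightest. In GFPfoxp3 cells the difference was 0.53.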

How the results depend on the processing

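No paired analysis was possible because each group holds 1 array and the labels give no replicate numbers to pair, beyond the additive fit itself, which compares populations within an IL-2 state and IL-2 within a population. For GFPfoxp3 over GFPko 2 members were called, and 1 (Ndufaf4) with no filter on dim genes, without probe sets marked _s_at, _x_at or _a_at, with quantile normalization and with an intensity trend and robust variance. There were 0 without the CD25pos population, where the adjusted p by limma was 0.0796 for Ndufaf4 and 0.0948 for Ndufaf7. For GFPfoxp3 over CD25pos 1 was called, and 2 with centred arrays (Cycs joined) and without the GFPko population (Ndufaf6 joined). For GFPko over CD25pos 1 was called, and 0 with no filter, with the mean of all probe sets, with centred arrays, with the trend and without the GFPfoxp3 population (limma adjusted p of Ndufaf4 0.0523, 0.12, 0.0615, 0.0505 and 0.151). At least 2-fold rather than 1.5-fold, the members counted were 2 of 9 for CD25pos over CD25neg, 0 of 3 for GFPfoxp3 over CD25neg, 0 of 1 for GFPko over CD25neg, 2 of 13 and 0 of 1 for IL-2 in GFPko and in CD25pos cells, and 1 of 3 and 0 of 3 for PDE3B over empty and over H801A. With the mean of all probe sets there were 4 for CD25pos over CD25neg, and 8 and 0 for IL-2 in GFPko and CD25pos cells. Without marked probe sets there were 4 for CD25pos over CD25neg, 2 for GFPko over CD25neg, 1 for IL-2 in GFPfoxp3 cells, where there had been 0, and 17 in place of 43 not overlapping between transduced and sorted arrays. Centring gave 5 for CD25pos over CD25neg and 0 for GFPko over CD25neg, and quantile normalization gave 0 for the last. Shares of all genes called, past the fold or not overlapping were computed for the main setting only. The causes were not tested. Centring moves every gene of a comparison alike, so the sign of a median over the 60 genes is read against that of all genes.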
